A study of Homo sapiens with 6 samples.

Results

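The cytosolic heat shock chaperones are described here through 10 genes, chosen by symbol from the deposited gene table of 17579 genes: HSF1, HSPA1A, HSPA1B, HSPA8, HSPA4, HSPH1, DNAJB1, HSP90AA1, HSP90AB1 and HSPB1. All 10 were in the table, and all 10 passed the filter on low counts that left 13138 genes for testing. RNA-seq was made from LP-1, which is an established line of human multiple myeloma cells, after infection with a virus carrying a guide RNA. In the group labelled Aurora A-KO (3 libraries) the guide targeted AURKA, which encodes Aurora A, a kinase of mitosis. In the group labelled NT Control, called Vector in the sample titles (3 libraries), the guide had no target. Both groups were infected and both were cultured in 10% FBS. The labels do not say whether the cells were a pool or a clone, how many guides were used or when the cells were harvested. The 3 libraries of a group are numbered 1 to 3 as in the labels.

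Heat shock proteins keep other proteins folded. HSP70 binds short hydrophobic stretches of unfolded chains, HSP40 proteins bring it clients and start its ATP hydrolysis, HSP110 proteins exchange its nucleotide, and HSP90 takes over clients such as kinases and steroid receptors at a late stage of folding. The transcription factor HSF1 is held inactive in unstressed cells, forms trimers on proteotoxic stress and binds inverted repeats of the letters GAA, the heat shock element. Myeloma cells, which secrete large amounts of antibody chain, are known for a heavy load on protein folding, and Aurora A is among the kinases reported as clients of HSP90.

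The promoters show which of these genes carry that element in its plainest form. RefSeq windows on GRCh38.p14, from 250 bases before to 50 bases after the start site, matched 9 of the 10 genes with 14 start sites. These windows are on another build than the authors' hg19 and were used for sequence only. The element was searched as 2 units (GAANNTTC or TTCNNGAA) and as 3 units (GAANNTTCNNGAA or TTCNNGAANNTTC). Each pair of forms covers both strands, and a 3-unit match holds 2 overlapping 2-unit matches. The 3-unit form lay in 3 of the 14 windows, against 0.490% of all 35116 RefSeq windows, and the 2-unit form in 8 of 14, against 13.5% of all. HSPA8, HSP90AA1 and HSP90AB1 had 3 units. HSPA1A, HSPA1B, HSPB1 and DNAJB1 had 2 units only. A further 2-unit match, which begins at the third start site of DNAJB1, is not shown. HSPA4 and HSPH1 had no match in this window, which says only that these exact letters are not in it. HSF1 had no window. A match lay in 7 of the 9 genes with a window, where 16.2% of all 27305 such genes had a 2-unit match. The matched stretches are shown 5′ to 3′ on the gene's strand, with the letters of the matches in capitals:
HSPA8, distal: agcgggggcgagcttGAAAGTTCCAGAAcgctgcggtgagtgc
HSPA8, proximal: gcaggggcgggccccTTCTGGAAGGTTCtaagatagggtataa
HSP90AA1, inner start: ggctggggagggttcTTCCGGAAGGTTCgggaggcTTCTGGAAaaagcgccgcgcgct
HSP90AB1, distal: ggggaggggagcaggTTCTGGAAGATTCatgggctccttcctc
HSP90AB1, proximal: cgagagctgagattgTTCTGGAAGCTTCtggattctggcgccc
HSPA1A: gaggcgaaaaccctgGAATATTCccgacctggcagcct
HSPA1B: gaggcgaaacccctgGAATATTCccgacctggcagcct
HSPB1: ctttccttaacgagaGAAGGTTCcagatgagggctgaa
DNAJB1, middle start: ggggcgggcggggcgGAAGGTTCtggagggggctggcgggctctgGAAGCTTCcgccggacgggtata

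The HSPA8 stretches lie on the minus strand at chr11:123062339-123062381 and chr11:123062164-123062206. The HSP90AA1 stretch is on the minus strand at chr14:102087090-102087147, before the second of 2 start sites in the table. The HSP90AB1 stretches are on the plus strand at chr6:44247763-44247805 and chr6:44247816-44247858, before the third of 3 start sites. HSPA1A and HSPA1B are neighbours on the plus strand, at chr6:31815422-31815459 and chr6:31827618-31827655. The HSPB1 stretch is on the plus strand at chr7:76302476-76302513. The DNAJB1 stretch is on the minus strand at chr19:14518422-14518489, before the second of 3 start sites.

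HSPA1A and HSPA1B, the stress-inducible HSP70 genes, also share nearly all of their coding sequence, so their reads cannot be told apart over most of its length. In GENCODE 29 their coding sequences of 1923 bases, stop codon left out, differed at 4 positions (99.79% identity) and encoded the same protein, and the longest identical run was 1709 bases. The 60 coding bases that hold the most differences, from base 1846 to base 1905 of the coding sequence, contain 2 of the 4, shown in capitals:
HSPA1A: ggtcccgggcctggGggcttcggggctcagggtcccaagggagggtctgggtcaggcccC
HSPA1B: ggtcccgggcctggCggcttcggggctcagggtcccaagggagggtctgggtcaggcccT
The division of reads between the pair is therefore uncertain, and their sum is given beside each of them. HSPA8, HSPA4, HSP90AB1 and HSPB1 had whole expected counts in every library. The other 6 genes had fractional counts.

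Total expected counts per library were 18287684 to 18383855 in AURKA-guide cells and 17724174 to 18523594 in control cells. AURKA (gene ID 6790) was at 112.8, 119.4 and 112.7 CPM (expected counts scaled to library size) in AURKA-guide libraries 1 to 3, against 189.1, 192.2 and 194.8 CPM in control libraries 1 to 3. This was a log2 difference of -0.74 (SE 0.0488, edgeR quasi-likelihood test, adjusted p = 1.55e-06), or 0.599 of the control level, and the groups did not overlap. Markers were checked for cell identity. The plasma cell markers SDC1, CD38, TNFRSF17, IRF4, PRDM1, XBP1 and JCHAIN were all expressed. CD27, also on that list, was low, at a mean of 2.18 CPM in AURKA-guide and 1.99 CPM in control cells. The 8 markers summed to 8110 to 8350 CPM in AURKA-guide and 7880 to 8810 CPM in control libraries. JCHAIN alone had a mean of 5330 CPM in both groups. Of the 8, 1 was called (CD38, higher in AURKA-guide cells). NSD2 and FGFR3, which mark the t(4;14) translocation of some myelomas, summed to 985 to 1030 CPM in AURKA-guide and 1050 to 1180 CPM in control libraries, and FGFR3 was called. Markers of T and NK cells summed to at most 0.491 CPM in AURKA-guide and 0.595 CPM in control libraries, and those of erythroid cells to at most 0.331 CPM in AURKA-guide and 0.464 CPM in control libraries. Myeloid, stromal and epithelial markers stayed at or below 6.07 CPM in sum in every library. The share of genes called over all 13138 was 2.03% (267 genes, 126 higher and 141 lower in AURKA-guide cells). Labels do not say whether replicates were separate cultures, so the p-values measure the spread between these libraries, which may be technical. In RNA from whole cultures, fewer cells of a kind and less RNA per cell cannot be told apart.

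LP-1 cells expressed the chaperones over a wide span of levels. Per transcript length, in FPKM (the authors' values, scaled to transcript length and to library depth), 4 of the genes stood far above the rest. HSP90AB1, the constitutive HSP90, was at 1064.6, 1085.2 and 1064.1 FPKM in AURKA-guide libraries, against 1035.4, 1014.3 and 1042.7 FPKM in control libraries, rank 71 of 17579 genes in AURKA-guide and rank 76 in control cells. HSPA8, the constitutive HSP70, followed at 861 ± 13.7 FPKM in AURKA-guide and 785 ± 20.2 FPKM in control cells (SD, n = 3 each, rank 88 and rank 105). The small heat shock protein gene HSPB1 was at 594 ± 47.2 FPKM in AURKA-guide and 715 ± 84.4 FPKM in control cells (SD, n = 3 each, rank 133 and rank 116). The inducible HSP90 gene HSP90AA1 was at 437, 471 and 465 FPKM in AURKA-guide libraries, against 404, 373 and 459 FPKM in control libraries (rank 158 in AURKA-guide and 175 in control cells). HSF1, HSPA1B, HSPA4, HSPH1 and DNAJB1 lay between 33.19 and 70.33 FPKM in AURKA-guide libraries and between 35.91 and 77.78 FPKM in control libraries. HSPA1A was lowest, at 5.21 ± 0.561 FPKM in AURKA-guide and 5.98 ± 0.817 FPKM in control cells (SD, n = 3 each). That level rests on the uncertain division of reads with HSPA1B. Together the 10 genes took 0.749%, 0.765% and 0.751% of all expected counts in AURKA-guide libraries 1 to 3, against 0.720%, 0.715% and 0.740% in control libraries 1 to 3.

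**Figure D1:**
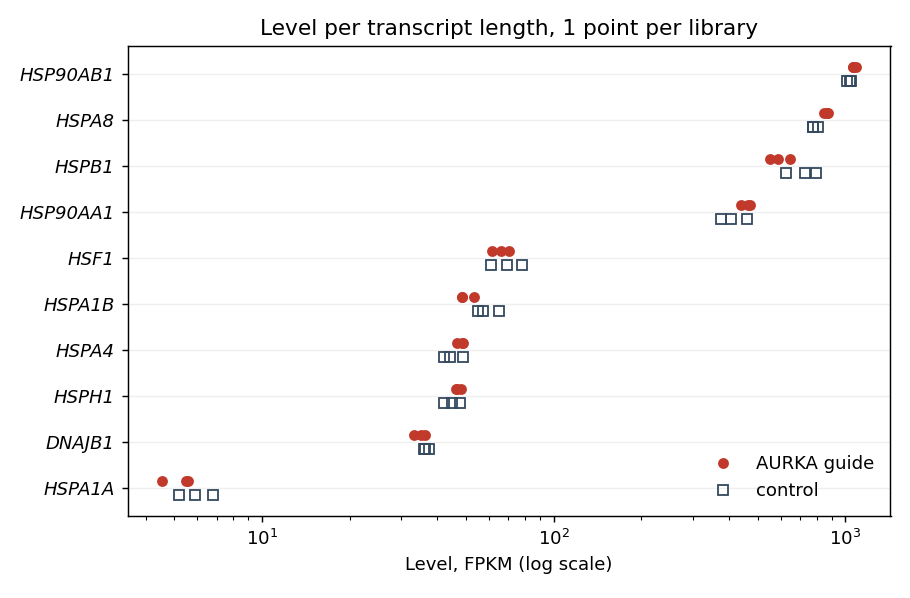
Level of each chaperone gene in FPKM on a log axis, 1 point per library, filled red circles for AURKA-guide and open squares for control libraries. HSP90AB1, HSPA8, HSPB1 and HSP90AA1 sit at 373.33 FPKM or more in every library, and HSPA1A at 6.83 FPKM or less.

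The order of the 10 levels was the same in both groups. Neighbours in that order whose library ranges overlapped were HSPA1B with HSPA4 and HSPA4 with HSPH1 in AURKA-guide cells. In control cells they were HSPA8 with HSPB1, HSF1 with HSPA1B, and HSPA4 with HSPH1. The ranges of all other neighbours did not overlap, though some gaps were smaller than the ranges beside them.

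None of the 10 genes passed an adjusted p of 0.05 in edgeR's quasi-likelihood test between AURKA-guide and control cells, against the 2.03% of all genes. At an unadjusted p under 0.05 there were 4 of the 10 (HSPA1B, HSPB1, HSPA8 and HSP90AA1), beside 2118 of 13138 genes. DESeq2's Wald test called 1 of the 10 (HSPA1B), against 2.14% of all genes. Limma-trend on log2(FPKM + 1) and log2(FPKM + 0.1) called 0 of the 10, where it called 201 and 190 of all genes. The log2 differences ran from -0.27 to 0.15 with a median of -0.014, 5 positive and 5 negative, while the median of all tested genes was -9.41e-05. The median size regardless of sign was 0.114 for the 10 and 0.0893 for all tested genes. In 3 of the 10 the library ranges of the groups did not overlap (HSPA8 and HSP90AB1 higher, HSPA1B lower), which was so for 20.8% of all tested genes.

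**Figure D2:**
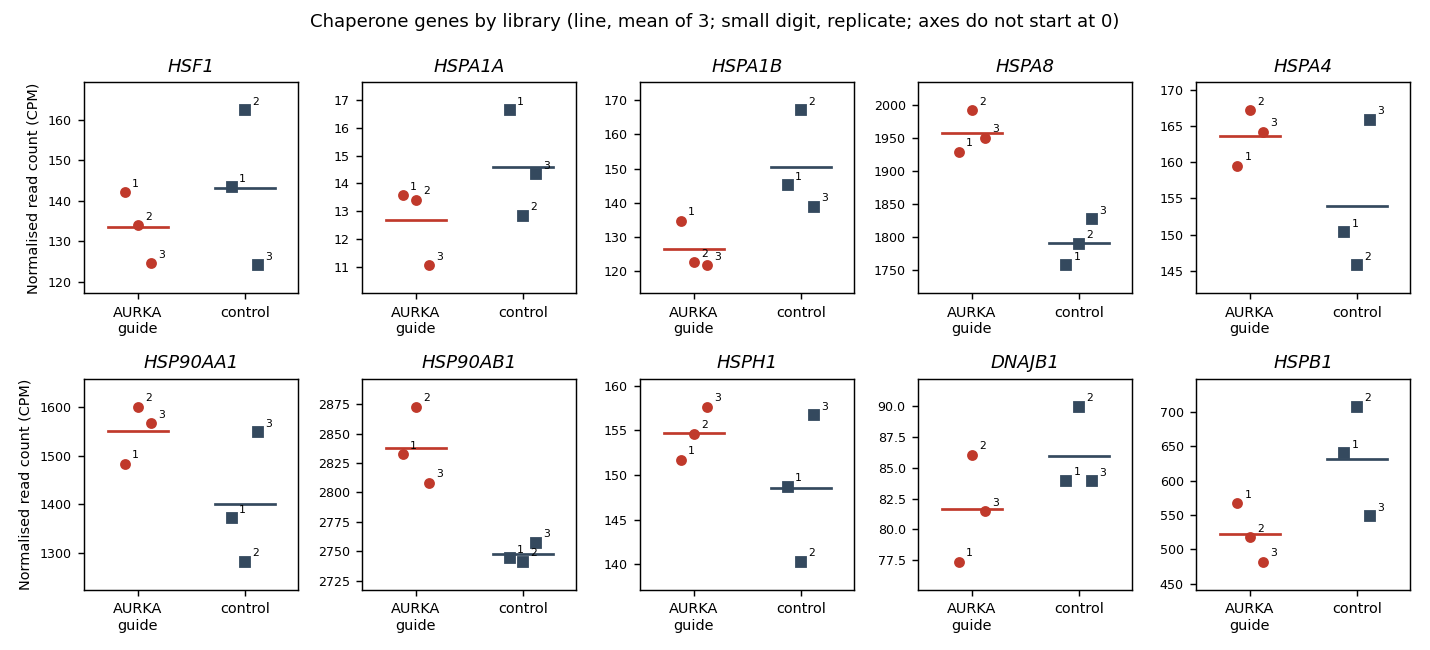
Normalised read count (CPM) of each gene by library, AURKA guide left and control right, with the group mean as a line and the replicate number beside each point. Axes differ between genes and do not start at 0. The groups are apart for HSPA1B, HSPA8 and HSP90AB1, and control replicates 2 and 3 are the ends of the control range for every gene but HSPA8 and HSPA1A.

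HSF1, the master regulator of the heat shock response, had 142.2, 134.0 and 124.6 CPM in AURKA-guide libraries 1 to 3, against 143.4, 162.4 and 124.1 CPM in control libraries 1 to 3. The AURKA-guide range lay inside the control range, and control replicate 2 was the highest of the 6. The log2 difference was -0.10 (SE 0.0801, adjusted p = 0.563, edgeR). It was 0.00064 without control replicate 2 and -0.053 without AURKA-guide replicate 3, but -0.149 without AURKA-guide replicate 1. Without control replicate 3 it was -0.197 (edgeR adjusted p = 0.0295), in a run that called 15.3% of all genes.

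Among the HSP70 genes, HSPA8 (gene ID 3312), which folds new chains and strips clathrin coats in unstressed cells, had 1929.2, 1992.1 and 1950.8 CPM in AURKA-guide libraries, against 1756.9, 1789.9 and 1826.6 CPM in control libraries. Every AURKA-guide library was above every control library. The log2 difference was 0.13 (SE 0.0395, edgeR adjusted p = 0.129), which did not pass the threshold.

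HSPA1B (gene ID 3304) was assigned most of the inducible pair's counts, in a division of reads that is uncertain. It had 134.7, 122.7 and 121.7 CPM in AURKA-guide libraries, against 145.2, 167.0 and 138.8 CPM in control libraries. All AURKA-guide libraries were below all control libraries. The log2 difference was -0.25 (SE 0.0677, edgeR adjusted p = 0.0808), the smallest p of the 10, and DESeq2's Wald test gave an adjusted p of 0.0368. In the authors' deposited table of 229 genes, HSPA1B was the 1 of the 10 listed, with a log2 fold change of -0.252 and a q-value of 0.0473, close to the table's highest q-value of 0.0495. Without control replicate 2 the difference was -0.17 (edgeR adjusted p = 0.202). HSPA1A (gene ID 3303) was at 13.6, 13.4 and 11.04 CPM in AURKA-guide libraries, against 16.6, 12.8 and 14.3 CPM in control libraries, and the groups overlapped (log2 difference -0.21, SE 0.108, adjusted p = 0.361, edgeR). That difference was -0.10 without control replicate 1 and -0.12 without AURKA-guide replicate 3. Summed, the pair had 148.3, 136.1 and 132.7 CPM in AURKA-guide libraries, against 161.8, 179.9 and 153.2 CPM in control libraries, a log2 difference of -0.25 (adjusted p = 0.0654, edgeR). The groups did not overlap for the sum, but most of the sum is HSPA1B, so this largely repeats the HSPA1B values.

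The balance between constitutive and inducible HSP70 can be read within each library. The ratio of HSPA8 to the sum of HSPA1A and HSPA1B, in FPKM, was 14.4, 16.2 and 16.3 in AURKA-guide libraries, against 12.02, 11.01 and 13.2 in control libraries. Constitutive HSP70 RNA thus outweighed the inducible form more than 10 times in all 6 libraries. The groups did not overlap. This follows from HSPA8 being higher and the summed pair lower in every AURKA-guide library, so it is no further result. HSPA8 has a GC content of 47.0%, against 58.7% for HSPA1B and 59.7% for HSPA1A, and the ratio was not corrected for it. This ratio was chosen after the values of its genes were seen and was not tested.

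Of the HSP110 genes and the HSP40 gene, none had groups that were apart. HSPA4 (gene ID 3308), a nucleotide exchange factor of HSP70, had 159.5, 167.2 and 164.2 CPM in AURKA-guide libraries, against 150.3, 145.7 and 165.8 CPM in control libraries, a log2 difference of 0.09 (SE 0.0553, edgeR adjusted p = 0.459). HSPH1 (gene ID 10808), the heat-inducible HSP110, had 151.7, 154.6 and 157.7 CPM, against 148.7, 140.3 and 156.7 CPM in control libraries, a log2 difference of 0.06 (SE 0.0524, edgeR adjusted p = 0.616). For both genes 2 of the control libraries were below all AURKA-guide libraries, while control replicate 3 was not. Without control replicate 2 the differences were 0.05 (HSPA4) and 0.02 (HSPH1), and without control replicate 3 they were 0.14 (HSPA4) and 0.09 (HSPH1). DNAJB1 (gene ID 3337), the HSP40 that is among the most strongly heat-induced chaperone genes, had 77.3, 86.1 and 81.5 CPM in AURKA-guide libraries, against 84.0, 90.0 and 83.9 CPM in control libraries, a log2 difference of -0.07 (SE 0.0578, edgeR adjusted p = 0.552). AURKA-guide replicate 2 lay inside the control range. The DNAJB1 difference was -0.04 without AURKA-guide replicate 1 and without control replicate 2, and -0.11 without AURKA-guide replicate 2.

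The HSP90 genes differed in how tightly the libraries agreed. HSP90AB1 (gene ID 3326) had 2832.3, 2872.8 and 2808.1 CPM in AURKA-guide libraries, against 2744.4, 2741.1 and 2757.5 CPM in control libraries. The groups did not overlap, yet the log2 difference was 0.05 (SE 0.0372, edgeR adjusted p = 0.563), the smallest of the 10 in size. HSP90AA1 (gene ID 3320) had 1483.1, 1600.4 and 1566.9 CPM in AURKA-guide libraries, against 1371.3, 1282.0 and 1548.4 CPM in control libraries, a log2 difference of 0.15 (SE 0.0594, edgeR adjusted p = 0.242). Control replicate 3 lay inside the AURKA-guide range and the other control libraries below it. Without control replicate 2 the HSP90AA1 difference was 0.09 and without control replicate 3 it was 0.22. The FPKM ratio of HSP90AA1 to HSP90AB1 was 0.411, 0.434 and 0.437 in AURKA-guide libraries, against 0.391, 0.368 and 0.440 in control libraries, and the groups overlapped.

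HSPB1 (gene ID 3315), the ATP-independent small heat shock protein also called HSP27, had the lowest log2 difference of the 10. It was at 568, 518 and 482 CPM in AURKA-guide libraries, against 639.6, 708 and 548 CPM in control libraries, a log2 difference of -0.27 (SE 0.0781, edgeR adjusted p = 0.1). AURKA-guide replicate 1 overlapped control replicate 3, and the other 2 AURKA-guide libraries were below all controls.

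The 10 differences ran with the base composition of the transcripts. The 5 genes with a positive difference (HSPH1, HSPA4, HSP90AA1, HSPA8 and HSP90AB1) had a GC content of 48.1% or less in their longest coding transcript, and the 5 with a negative one (DNAJB1, HSPA1B, HSPA1A, HSF1 and HSPB1) had 53.0% or more, against a median of 48.5% for all tested genes. Pearson's r across the 10 genes was -0.872 and Spearman's rho -0.842. These genes share the same 6 libraries, so the values describe them and carry no p. The libraries themselves differed in this respect. Over all tested genes, the correlation of a library's deviation from the mean library with GC content was 0.039, -0.225 and -0.324 in AURKA-guide libraries 1 to 3, against 0.228, 0.480 and -0.263 in control libraries 1 to 3. Control replicates 2 and 3, the ends of the control range for every gene but HSPA8 and HSPA1A, were the highest and the lowest control in this measure.

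**Figure D3:**
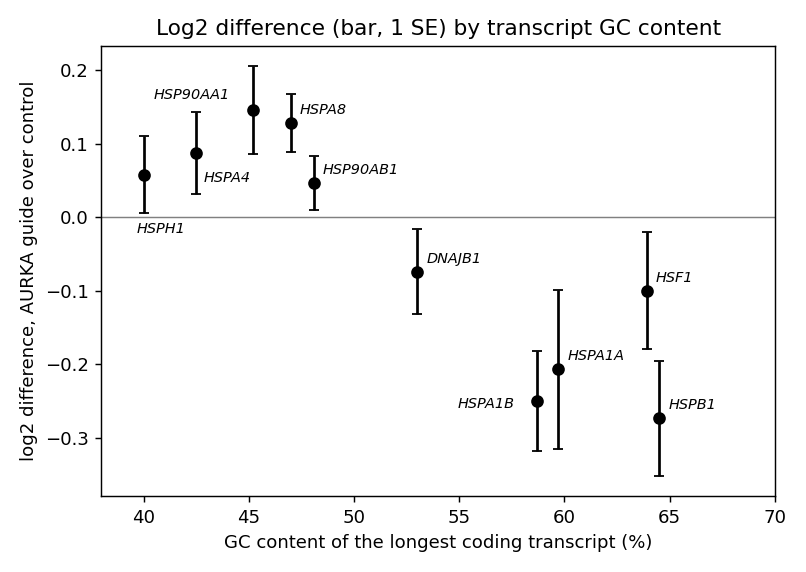
Log2 difference (AURKA guide over control, bar 1 SE) of the 10 genes against the GC content of their longest coding transcript. Genes at 48.1% GC or less lie above 0 and genes at 53.0% or more below it.

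When each library's trend with GC content was removed, all 10 differences were smaller in size, and 3 genes were called. HSPA8 was then at 0.11 (adjusted p = 0.0250), HSPB1 at -0.16 (adjusted p = 0.0097) and HSPA1B at -0.18 (adjusted p = 0.00905), all with edgeR, in a setting that called 5.98% of all genes. HSF1 and HSPH1 were then at 0.0096 and -0.0020. The correction was fitted without regard to group, so it also removes any group difference that runs with GC content. The part of GC content in the differences was not tested. Without control replicate 3, 6 of the 10 were called (HSPB1 and HSPA1B at -0.37 and -0.31, HSF1 at -0.20, HSP90AA1 at 0.22, HSPA8 and HSPA4 at 0.14 each), where 15.3% of all genes were. HSPA1B and HSPB1 were also called with the replicate number as a block, where 385 of all genes were, and HSPA1B by DESeq2. HSPA1A, HSP90AB1, HSPH1 and DNAJB1 were called in no alternative run. The sign of HSPA8, HSP90AA1, HSP90AB1, HSPA4, HSPB1, HSPA1A, HSPA1B and DNAJB1 was the same in every alternative run.

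**Figure D4:**
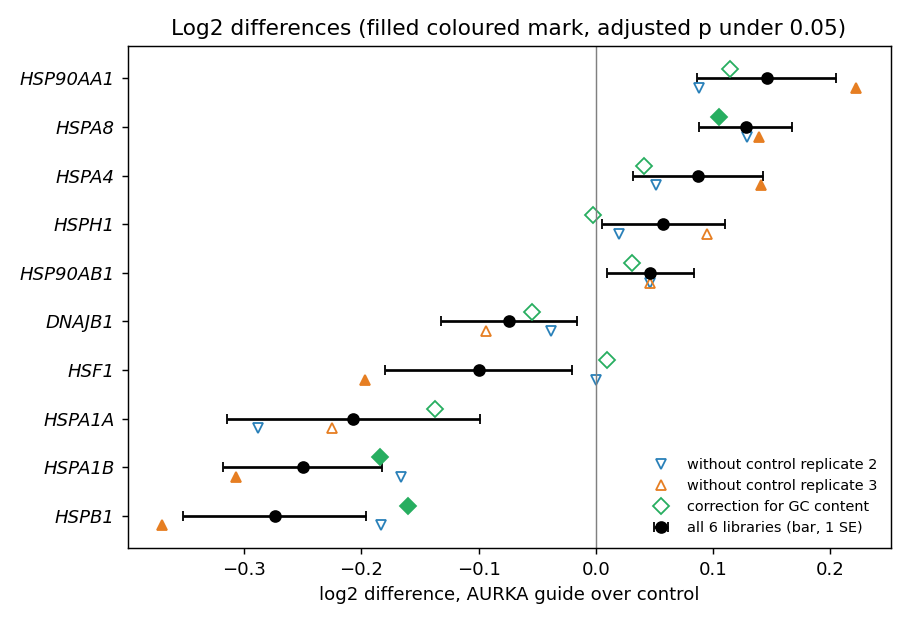
Log2 difference of each gene with all 6 libraries (black, bar 1 SE), without control replicate 2, without control replicate 3, and after a correction for GC content. A filled coloured mark has an adjusted p under 0.05, as for HSPA8, HSPA1B and HSPB1 after the correction.

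Transcripts show which RNA carried these counts. The transcript table held 35 transcripts of the 10 genes, of which 26 were tested and 17 held at least 10% of their gene's expected count in a group. HSPA1A, HSPA1B, HSPA4 and HSPB1 have a single transcript there. NM_005348.3 held 99.6% of the HSP90AA1 count in AURKA-guide and 99.7% in control cells. The HSPA8 count was divided between XM_011542798.1 (73.4% in AURKA-guide and 72.8% in control cells) and NM_006597.5 (26.5% and 27.2%). That of HSP90AB1 was divided between NM_007355.3 (61.2% and 64.6%) and XM_024446421.1 (37.2% and 32.5%), whose counts were 17533, 21990 and 18673 in AURKA-guide libraries, against 17820, 13253 and 17647 in control libraries. XM_024446421.1 was lowest in control replicate 2 and highest in AURKA-guide replicate 2, the library in which NM_007355.3 was lowest.

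**Figure D5:**
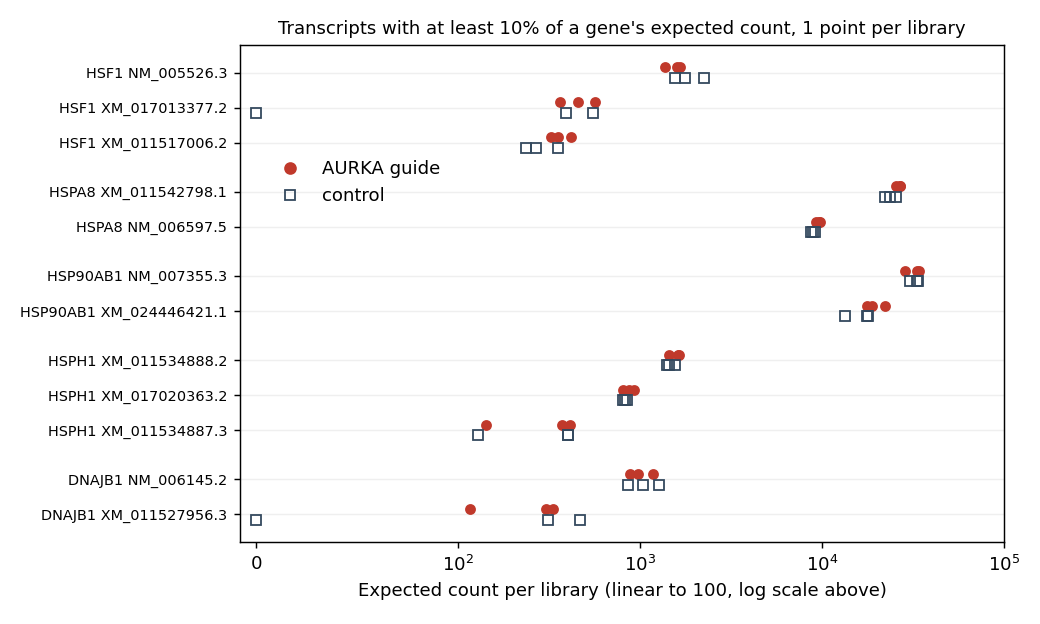
Expected counts per library of transcripts with at least 10% of their gene's count, for genes with several transcripts other than HSP90AA1, AURKA guide as red circles and control as open squares. Points overlap between the groups for every transcript of HSF1, HSP90AB1, HSPH1 and DNAJB1, and 1 transcript each of HSF1 and DNAJB1 has a control library at 0.

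No transcript of the 10 genes passed edgeR's test, which called 1 of 43979 transcripts (0.00227%), while 3 of the 26 tested had an unadjusted p under 0.05, beside 1693 of all 43979. DESeq2 called 1 of them, where it called 891 of the 43589 transcripts with an adjusted p (2.04%). This was XM_011542798.1 of HSPA8, at a log2 difference of 0.14 (SE 0.0407 and adjusted p = 0.898 in edgeR, adjusted p = 0.0386 in DESeq2). The authors' deposited table holds 2 transcripts of the 10 genes at a q-value under 0.05. The share of all its transcripts at that q-value was not counted, so these 2 cannot be set against it. One is XM_011542798.1 of HSPA8, with a q-value of 0.0477 in the authors' deposited table. The other is XM_005272315.3 of HSF1, with a q-value of 3.06e-08 and a log2 fold change of -22.1 in the authors' deposited table, which rests on 137 counts in control replicate 2, since the other libraries of both groups held 0.01 counts or fewer. It was too low to be tested here. The counts of minor transcripts varied widely within a group, with XM_017013377.2 of HSF1 at 454.9, 362.8 and 565.8 in AURKA-guide libraries, against 0, 552.7 and 393.0 in control libraries.

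The wider chaperone network was examined through 7 lists holding 89 genes, of which 86 were in the table and 78 were tested. None passed in edgeR in either direction, against 2.03% of all genes. At an unadjusted p under 0.05 there were 6 of the 78, beside 2118 of all 13138, and DESeq2 and limma-trend on FPKM also called 0. The median log2 difference of the 78 was -0.0045, with 38 positive and 40 negative. Among the tested list genes, the groups did not overlap for FKBP5, DNAJC2, BAG2, CCT2 and CCT7 (higher in AURKA-guide cells). The same held for CDC37, BAG1, TRAP1 and DNAJA3 (lower). Groups were apart in 20.8% of all tested genes. Every co-chaperone of HSP90 on the list of 12 was tested and none passed (median -0.018). FKBP5, an immunophilin and a known glucocorticoid target, was at 250 ± 2.38 CPM in AURKA-guide and 227 ± 9.82 CPM in control cells (SD, n = 3 each; log2 difference 0.14, SE 0.0479, edgeR adjusted p = 0.175), and its groups did not overlap. CDC37, which brings kinases to HSP90, was at 289 ± 7.30 CPM in AURKA-guide and 306 ± 14.5 CPM in control cells (SD, n = 3 each, groups not overlapping, log2 difference -0.08, adjusted p = 0.430), and the phosphatase PPP5C at -0.12 (adjusted p = 0.328).

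Of 20 tested co-chaperones of HSP70 none passed (median -0.013). DNAJC2, an HSP40 of the ribosome, was at 92.1, 97.1 and 95.5 CPM in AURKA-guide libraries, against 81.4, 78.3 and 91.4 CPM in control libraries (log2 difference 0.18, SE 0.0618, edgeR adjusted p = 0.169, and 0.0414 after the correction for GC content). STUB1, the ubiquitin ligase that marks HSP70 clients for degradation, was at -0.17 (SE 0.0664, adjusted p = 0.227) and the exchange factor BAG5 at 0.15 (SE 0.0718, adjusted p = 0.336). Only DNAJC2 of these 3 had groups that did not overlap.

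Genes that HSF1 is known to induce were measured as a list of 18, of which 16 were tested and none passed. Their differences ran from -0.34 to 0.10 with a median of -0.0045, 7 positive and 9 negative. SERPINH1, the collagen chaperone, was at -0.13 (SE 0.0672, edgeR adjusted p = 0.365), the HSP90 partner CHORDC1 at 0.10 (adjusted p = 0.488) and the mitochondrial co-chaperonin HSPE1 at -0.06 (adjusted p = 0.669). None of the 5 tested genes of the HSF family and its binding partners passed. HSBP1, which binds HSF1, was at -0.015 (adjusted p = 0.924), HSF4 at -0.027 (adjusted p = 0.891) and HSBP1L1 at 0.033 (adjusted p = 0.885).

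None of the 14 chaperonin and prefoldin subunits passed (median 0.024). CCT2, a subunit of the ring that folds actin and tubulin, was at 0.11 (SE 0.0470, edgeR adjusted p = 0.249) with groups that did not overlap, CCT8 was at 0.10 (adjusted p = 0.397) and PFDN1 at -0.09 (adjusted p = 0.464). Of the 13 chaperones of mitochondria and endoplasmic reticulum none passed (median 0.015). TRAP1, the mitochondrial HSP90, had 428, 424 and 413 CPM in AURKA-guide libraries, against 458, 478 and 443 CPM in control libraries, and these did not overlap (log2 difference -0.12, SE 0.0457, adjusted p = 0.204). The reticulum HSP90 gene HSP90B1 was at 0.11 (adjusted p = 0.277) and GRPEL2, an exchange factor of mitochondrial HSP70, at 0.13 (adjusted p = 0.476). Of 17 further HSP70 and small heat shock genes 8 were tested and none passed, among them HSPA13 at 0.15 (adjusted p = 0.358), HSPA14 at 0.037 (adjusted p = 0.795) and HSPB11 at 0.015 (adjusted p = 0.945). CRYAB and HSPB8 are small heat shock genes that are also on the list of genes HSF1 is known to induce. They did not reach the count filter, with at most 0.457 CPM (CRYAB) and 0.0542 CPM (HSPB8) in any library, against 482 CPM or more for HSPB1.

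The genes whose 6 values were most like those of HSPA1B, by Pearson's r of log2 CPM, were APEH (0.997), EIF3G (0.995) and FDX2 (0.994). This is a description over 6 libraries, in which 248 of 9227 genes with at least 10 CPM reached an r of 0.95.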

How the data were processed

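Libraries of LP-1 cells (3 with a guide against AURKA, 3 with a guide without a target) followed a BGISEQ-500 protocol, according to the labels. The submitters' processing notes name hg19, RSEM, Bowtie2 and BWA, with no version, role or setting. Strandedness is not given. Expected counts per gene and per transcript were deposited by the authors (44.8% of the gene values are not whole), with FPKM per gene. Per the file headers, the authors' comparison tables hold log2 fold changes and DESeq2 q-values.

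Rounded expected counts went into the quasi-likelihood F test of edgeR 4.0.16 (R 4.3.3) after filterByExpr and TMM scaling, with Benjamini-Hochberg adjustment over all genes tested and a threshold of 0.05. A standard error is the log2 difference divided by the root of F, and CPM refer to TMM-scaled totals. Alternatives were DESeq2 1.42.0, limma-trend (limma 3.58.1) on log2(FPKM + 1) and log2(FPKM + 0.1) where 3 libraries or more had 0.5 FPKM, other scalings, filters and thresholds, each library left out, a replicate block, HSPA1A and HSPA1B summed, and a GC offset. That offset fits a spline with 5 degrees of freedom to the deviations of each library against GC content of the longest coding transcript in GENCODE 29 (12811 of 13138 genes, the others set to the median). The tests were tried on simulated data with 200 changed genes. The simulated counts held no GC trend and no outlying library, so they cannot show how the tests behave where these occur. Replicates differed beyond counting noise (chi-square per gene 2.3 to 11.1), so none was a copy of another library. This does not show that they came from separate cultures.

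Members and lists were chosen with earlier results of these data known. Named are the 10 members, AURKA, in each list any gene past the threshold and the 3 of smallest p at a mean of 5 CPM or more, the 3 genes most like the member of smallest p, and transcripts with at least 10% of a member's count. CRYAB, HSPB8, the HSP70 and HSP90 ratios, the genes called in single alternatives and the further list genes whose groups were apart were chosen after their values were seen.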

Additional observations from a re-analysis of the deposited data

How the results depend on the processing

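The number of the 10 chaperone genes past the threshold was 0 with all libraries and 0 without a filter, with a mean of at least 10 CPM, with DESeq2 size factors, with library size alone, with limma-trend at either pseudocount, and with HSPA1A and HSPA1B summed. It was 1 with the DESeq2 Wald test (HSPA1B), 1 at an adjusted p of 0.1 (HSPA1B), 3 after the correction for GC content, and between 0 and 6 when 1 library was left out, with the 6 all without control replicate 3. The labels give both groups the numbers 1 to 3 but name no block, so the replicate number was used as an alternative only. Same-numbered libraries did not deviate together (r = 0.051, -0.105 and 0.095). This cannot exclude a pairing, since deviations from a mean of 3 libraries depend on each other and the libraries differed in their GC trends. With the replicate block 2 of the 10 were called (HSPB1 at -0.27, adjusted p = 0.00852, and HSPA1B at -0.25, adjusted p = 0.0337), and 4 with the block and the GC correction (these, HSPA8 and HSP90AA1). The sign of HSF1 turned without control replicate 2 (0.00064, in a range from -0.197 when 1 library was left out) and after the GC correction without and with the block (0.0096 and 0.011), and that of HSPH1 after the GC correction (-0.0020 and -0.0019). AURKA stayed past the threshold in all settings, from -0.73 to -0.77. Over all genes the count was 267, 385 with the replicate block, 786 after the GC correction and 911 with the correction and the block. It was 281 with the DESeq2 Wald test, 201 and 190 with limma-trend (pseudocount 1 and 0.1), and 98 to 2034 without 1 library. No count over all genes was taken at an adjusted p of 0.1. In the 7 lists it was 0, 1 after the GC correction and 1 with the block as well (DNAJC2 in both), and 0 to 12 without 1 library, the 12 without control replicate 3. Among transcripts it was 1 with edgeR, 0 with the block, 0 without any 1 library, and 891 with DESeq2. The cause of these changes was not tested. With 3 libraries a group, the standard errors of the 10 genes were 0.0372 to 0.108 on the log2 scale, which limits the size of difference that can be detected.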
